A study of Mus musculus with 2 samples.

Results

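The 70 cells described here are those in which transcripts of Krt8, Krt18, Ltf and Wfdc18 made up the largest part of the RNA among single cells of the mouse tongue epithelium. They were chosen by that value alone: the unique molecular identifiers (UMIs, 1 per captured transcript) of the 4 genes were summed, divided by the cell's total and given per 10000 UMIs, and the 70 highest cells over both libraries were taken. The choice was made among 4066 cells that had at least 500 genes, at least 5000 UMIs, under 10% mitochondrial UMIs and under 10 Cd74 UMIs per 10000. The cells came from male B57BL/6 mice aged 8 to 12 weeks, with no genotype or treatment named, and were collected at Zeitgeber time ZT0 or ZT12, which are lights on and lights off in the usual convention. There was 1 library per time, and the sources used here do not say how many mice were pooled. Of the 70 members, 31 were among 1516 kept ZT0 cells and 39 among 2550 kept ZT12 cells.

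The tongue surface is a stratified squamous epithelium, built from keratinocytes that use Krt5 and Krt14 in the basal layer and Krt13, Krt4 or hair-type keratins above it. Krt8 and Krt18 form the keratin filaments of simple, one-layered epithelia such as gland ducts, and taste bud cells use them too. Ltf encodes lactoferrin, a secreted protein that binds iron, and Wfdc18 encodes a small secreted protein with a whey acidic protein domain. In the mouse, minor salivary glands open onto the tongue surface through ducts that join the epithelium, and taste buds sit within papillae.

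Because the rule rests on transcripts of 4 genes, the sequence just before each gene is shown (RefSeq, GRCm38.p6, in the direction of the gene). Krt8 (ENSMUSG00000049382, chr15:101996698-102004482, minus strand) and Krt18 (ENSMUSG00000023043, chr15:102028180-102032027, plus strand) are neighbours that point away from each other. Ltf (ENSMUSG00000032496) lies at chr9:111019271-111042767 and Wfdc18 (ENSMUSG00000000983) at chr11:83709015-83711348, both on the plus strand. The printed stretches are chr15:102004483-102004592 for Krt8, chr15:102027966-102028179 for Krt18, chr9:111019042-111019270 for Ltf and chr11:83708754-83709003 for Wfdc18. Capitals mark 3 motifs on either strand. AGGAAG is the core of many ETS factor sites. ACAAT is that of SOX sites, and the letters TATAA stand for the TATA box.

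Krt8: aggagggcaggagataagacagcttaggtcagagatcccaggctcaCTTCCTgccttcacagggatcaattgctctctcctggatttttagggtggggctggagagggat
Krt18: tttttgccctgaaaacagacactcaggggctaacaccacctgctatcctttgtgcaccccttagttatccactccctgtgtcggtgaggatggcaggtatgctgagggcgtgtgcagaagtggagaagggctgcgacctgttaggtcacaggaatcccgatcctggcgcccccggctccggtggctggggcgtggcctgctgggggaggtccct
Ltf: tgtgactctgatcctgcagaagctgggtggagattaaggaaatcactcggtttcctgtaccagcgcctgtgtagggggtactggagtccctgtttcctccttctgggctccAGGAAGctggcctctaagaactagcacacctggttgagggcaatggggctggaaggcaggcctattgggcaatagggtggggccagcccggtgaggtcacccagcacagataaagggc
Wfdc18: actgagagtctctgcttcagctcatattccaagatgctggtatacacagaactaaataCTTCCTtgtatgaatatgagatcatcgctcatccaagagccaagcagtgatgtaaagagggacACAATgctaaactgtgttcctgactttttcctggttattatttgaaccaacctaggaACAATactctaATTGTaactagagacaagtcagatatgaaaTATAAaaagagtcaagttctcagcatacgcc

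The search covered the 250 bases before each RefSeq start, of which 140 for Krt8, 36 for Krt18 and 21 for Ltf lie inside the GENCODE gene and are not printed. AGGAAG was found once before Krt8, Ltf and Wfdc18, and in 29.5% of 32817 promoter windows of that length. ACAAT was found 3 times before Wfdc18 and not before the other 3 genes, against 27.7% of all windows. TATAA was found 31 bases before the start of Wfdc18 and 19 bases before that of Krt18, the latter in the part not printed, against 22.8% of all windows. TGTGGT, the core of RUNX sites, was in none of the 4 windows and in 14.0% of all. The 4 windows thus held no motif in common among the 4 searched, and a match is a run of letters and no measurement of binding.

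Before filtering there were 1726 barcodes and 49826740 UMIs at ZT0, and 2819 barcodes and 67901140 UMIs at ZT12. Median depth was 29265 UMIs in kept ZT0 cells and 23468 in kept ZT12 cells. Members had a median of 20703.5 UMIs (5838 to 47278) and other kept cells 25512. With every cell thinned to 5000 UMIs, members had a median of 1966 genes and the others 1917.5, and mitochondrial UMIs were 4.20% and 3.54%. Cells of 1 library are not replicates and there was 1 library per time, so no test was made. Intervals below are 95% intervals that cover counting error only, and every difference from the other kept cells is a description, because the members were picked from the same cells.

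The summed value fell steeply over the 70 members, from 863 per 10000 UMIs to 1.38, with a median of 7.51. The top 2 cells were from ZT12, at 863 and 831, followed by ZT0 cells at 585 and 353. There was no gap at the limit: the cells at places 69 and 70 had 1.43 and 1.38, and those at places 71 and 72 had 1.31 and 1.30. The top 10 cells held 71.0% of the members' 8475 UMIs of the 4 genes. Of the members, 11 had 100 or more per 10000 and 23 had 10 to 100. A further 14 had 3 to 10, and the last 22, under 3, had a median of 4 UMIs of the 4 genes. Among the 3996 other kept cells, 91.3% had no UMI of these genes and none had more than 5. The lowest members therefore stood close to the level of single stray transcripts.

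**Figure D1:**
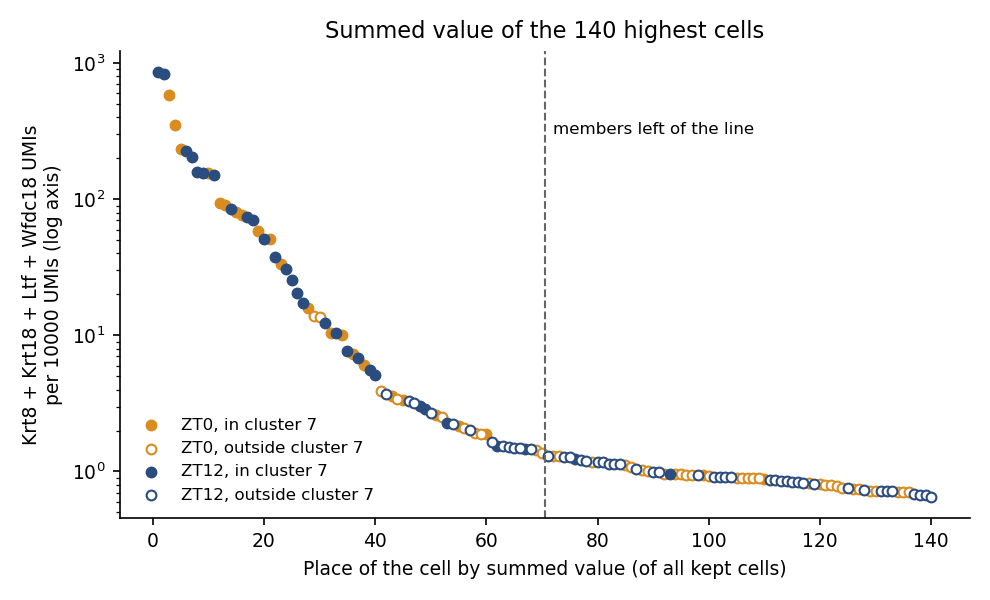
Summed value of Krt8, Krt18, Ltf and Wfdc18 (UMIs per 10000 UMIs, log axis) in the 140 highest cells by place, orange for ZT0 and blue for ZT12. Filled points lie in cluster 7, a cluster made without these 4 genes. Values run from 863 to 1.38 in the 70 members left of the dashed line with no step at the line, and the open points begin near a value of 14.

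The members were not uniform in which of the 4 genes they carried. Krt8 had a UMI in 45 members, Krt18 in 51, Ltf in 24 and Wfdc18 in 38. All 4 genes were found in 14 members, 3 genes in 9, a pair of them in 28 and a single one in 19. The keratins gave over 50% of the value in 35 members and at most 50% in the other 35, and 8 members lay between 40% and 60%. They gave 100% of it in 29 members and 0% in 7. The cell at place 4, from ZT0, drew 1.37% of its 353 per 10000 from the keratins, whereas the cell at place 15, also from ZT0, drew its whole 81.1 from them. The secreted pair thus dominated the very highest cells, and the lowest members were mostly keratin alone.

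Per cell, Ltf ranged from 0 to 341 per 10000 at ZT0 and from 0 to 363 at ZT12, with a median of 0 at both times. Wfdc18 reached 174 at ZT0 and 556 at ZT12, with medians of 1.29 and 0. The keratins had a narrower range: Krt8 reached 40.3 at ZT0 and 67.2 at ZT12, with medians of 1.02 and 1.15, and Krt18 reached 43.8 and 41.5, with medians of 1.43 and 2.91. The ranges of the libraries overlapped for each gene. Over all members, Ltf and Wfdc18 per cell had a Spearman rho of 0.55 and Krt8 and Krt18 one of 0.53, whereas Krt18 and Wfdc18 had 0.12. These are descriptions over 70 cells picked on the sum of these genes.

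When all kept cells were clustered on 2000 variable genes without the 4 rule genes, 48 of the members (21 ZT0, 27 ZT12) fell together in 1 of 19 clusters, number 7, which held 68 cells in all. The other 22 members were spread over clusters of the surrounding epithelium. All 11 members above 100 per 10000 lay in cluster 7, as did 21 of the 23 between 10 and 100, 9 of 14 between 3 and 10, and 7 of the 22 under 3. Of the 15 nearest neighbours of each member, 45.6% were members too, against 1.72% of all kept cells. The share was 65.6% for members in cluster 7 and 2.12% for those outside it, 17 of which had no member among their neighbours. Of the 20 cells of cluster 7 that were not members, 6 had a UMI of the rule genes.

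The 22 members outside cluster 7 differed from the rest in genes of the rule and in others. They had a median of 5 UMIs of the rule genes, none of them had a UMI of Ltf, and 4 had one of Wfdc18. Their Krt13, a keratin of the differentiating mucosa, had a median of 59.3 per 10000 (1.5 to 390), against 2.92 (0 to 140) in the members in cluster 7 and 127 in other kept cells. Their Epcam, a surface adhesion protein of simple epithelia, had a median of 1.49 per 10000 (0.283 to 19.2), against 10.3 (2.32 to 59.7) in cluster 7 and 0.512 in other kept cells. Of the 48 members in cluster 7, all had an Epcam UMI, 35 had Cldn3 and 18 had Krt19, while their Krt14, a keratin of stratified epithelium, had a median of 81.1 per 10000 against 28.8 in other kept cells. The name simple epithelial cell was thus matched only in part there. Outside cluster 7 it was matched in fewer: 2 members had Cldn3 and 1 had Krt19. These include the ZT0 cell at place 29, with 25 UMIs of Krt8, 21 of Wfdc18 and 66 of Epcam, and the ZT0 cell at place 30, with 52 of Krt8 and 52 of Krt19. All members are kept below, since the rule took them.

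**Figure D2:**
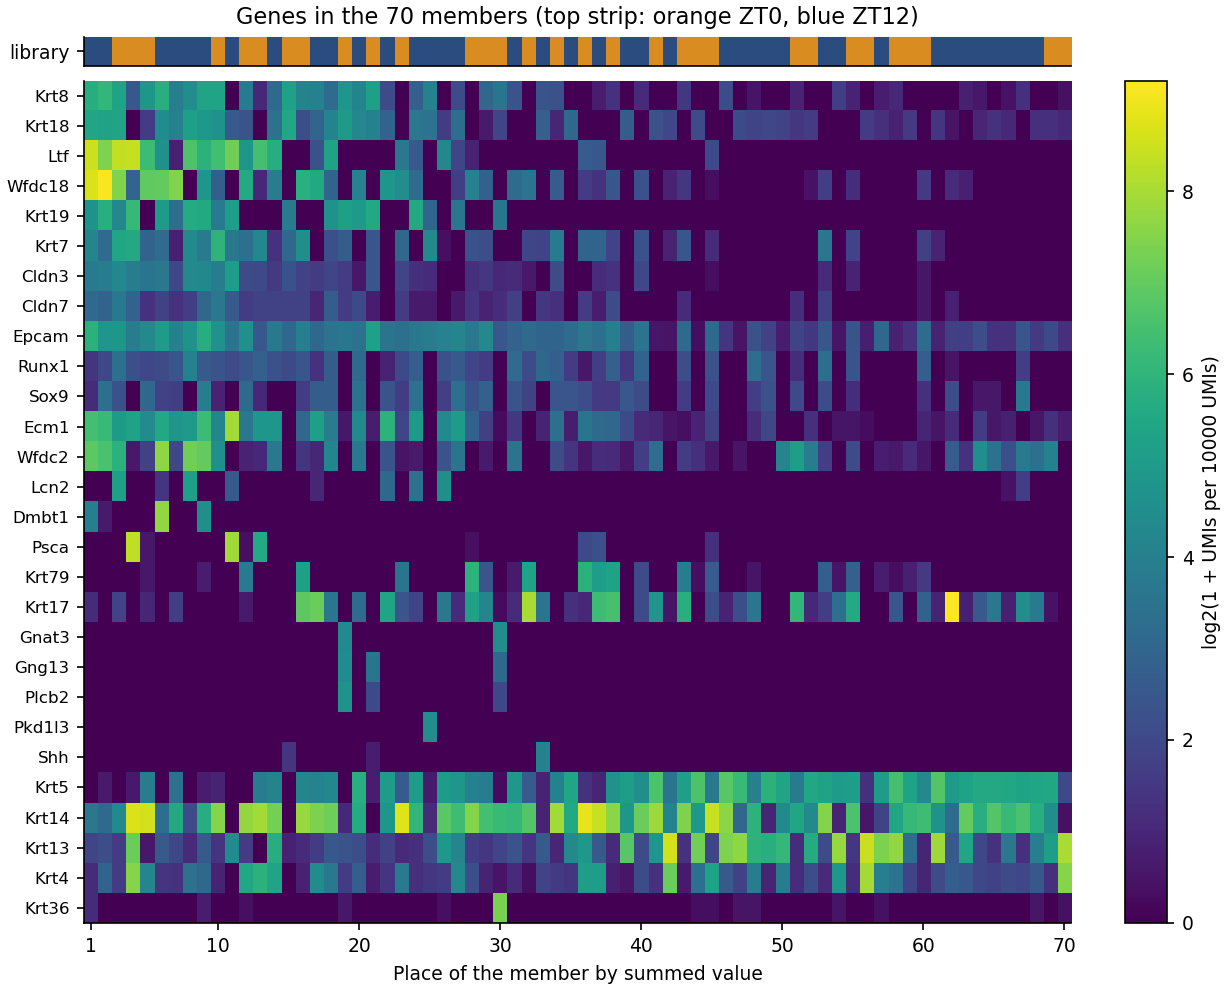
Level of 28 genes, as log2(1 + UMIs per 10000 UMIs), in the 70 members ordered from the highest summed value at the left, with the library of each cell in the top strip. Krt19, Cldn3, Cldn7 and Epcam are bright on the left, Krt13 on the right, and the taste genes in single columns.

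UMIs were summed over members and over other kept cells in each library and scaled to CPM, counts scaled to a total of 1e6. Of 2929 genes with a mean of at least 50 CPM, 103 were at least 2-fold higher in members in both libraries (3.52% of those compared) and 44 at least 2-fold lower (1.5%), or 5.02% in either direction. With TMM factors, which align the bulk of the genes, 83 were higher and 59 lower, so that 58.5% rather than 70.1% of the differing genes were higher, and the median log2 ratio of all compared genes moved from 0.01 to -0.16. With the 48 members in cluster 7 alone, a choice made after seeing the data, 187 were higher and 97 lower, and these took in 102 of the 103 and 39 of the 44. The leading genes below are the 20 with the largest mean log2 ratios among those higher with a UMI in at least 25% of members, and the 10 with the lowest.

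Among genes with a UMI in at least 25% of members, the largest ratio outside the rule was that of Krt19 (chr11:100140810-100148665), a keratin of simple and ductal epithelia. It stood at 469 CPM in ZT0 members and 807 CPM in ZT12 members, against 0.642 and 1.63 CPM in other kept cells, a mean log2 ratio of 8.21. It was not a gene of every member: 19 of the 70 had a Krt19 UMI, and the highest cell had 70.5 per 10000. Psca had a larger mean log2 ratio, 8.59, at 867 and 202 CPM, but 9 members had a UMI of it and a single cell held 69.7% of them. Krt7 (chr15:101411043-101430313), the ductal keratin often paired with it, stood at 632 and 250 CPM against 13.5 and 23.4, and 38 members had a UMI. Krt23, of the same list, went the other way at 103 and 122 CPM against 228 and 275, though not with the members in cluster 7 alone, where its log2 ratio was -0.56. Krt20, a keratin of taste and Merkel cells, had no UMI in any member or in any other kept cell.

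Lists are counted below over genes with at least 5 CPM in the other kept cells, called measured here, so that no gene is counted only because members have it. Over all 9508 such genes, 2.08% were at least 2-fold higher in members in both libraries and 2.24% lower, and the median log2 ratio was 0.00422. Of the 13 measured tight junction and adhesion genes of simple epithelia, 6 were higher and none lower, with a median log2 ratio of 1.14. These were Epcam, Cldn4, Elf3, Ehf, Tjp3 and Marveld3, and Cldn3 and Cldn7 reached 5 CPM only through the members. Cldn3, a claudin that seals the space between cells, stood at 208 CPM in ZT0 members and 214 in ZT12 members, against 0.704 and 0.226 CPM in the others. Cldn7, another claudin, stood at 143 and 109 CPM against 0.787 and 0.316. Epcam stood at 886 and 986 CPM against 103 and 66.7, and every member had at least 1 Epcam UMI. Elf3, an epithelial transcription factor, was at 186 and 160 CPM against 22.3 and 19.3. The general junction genes Cdh1 and F11r were under the 2-fold limit, with mean log2 ratios of 0.54 and 0.70.

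After thinning to 5000 UMIs, Cldn3 had a UMI in 28 of 70 members (28.5% to 52.4%) and in 0.300% of other kept cells (unthinned 52.9% and 1.03%). Runx1, a transcription factor of progenitor and blood cells, had one in 57.1% (44.7% to 68.9%) against 0.926% (unthinned 65.7% and 2.38%). Sox9, a transcription factor of duct and progenitor cells, had one in 28 of 70 (28.5% to 52.4%) against 2.98% (unthinned 42 of 70 and 10.4%). Krt19 had one in 27.1% (17.2% to 39.1%) against 0.275%, and its unthinned share in members was also 27.1%. The shares in other kept cells can include free RNA as well as cells that carry these genes themselves. The part of free RNA in them was not tested.

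Runx1 and Sox9 also marked the cells of cluster 7 that were not members. Runx1 stood at 233 and 280 CPM in ZT0 and ZT12 members, against 4.70 and 1.49 in the others, with 46 members carrying it. Sox9 stood at 192 and 309 CPM against 9.07 and 9.18. Among the 20 cells of cluster 7 outside the members, 19 had a Runx1 UMI and 16 a Sox9 UMI, while none had Krt19. Of the 22 members outside the cluster, 1 had Runx1 and 3 had Sox9.

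Other leading genes covered enzymes, surface proteins and signalling inhibitors. Sorbs2, an adaptor of the actin skeleton, stood at 294 and 54.6 CPM in ZT0 and ZT12 members, against 1.20 and 0.0151 in the others. Akr1c18, a steroid dehydrogenase, stood at 502 and 79.9 CPM against 4.39 and 0.557, and Tnfaip2, a gene induced by tumour necrosis factor, at 261 and 141 against 3.60 and 0.572. Timp3, an inhibitor of matrix metalloproteinases, was at 398 and 165 CPM against 5.22 and 4.28. Mal, a membrane protein of apical transport, was at 337 and 146 CPM against 2.94 and 8.28, and Ceacam1, an adhesion molecule, at 138 and 110 against 3.17 and 2.95. The 20 cells of cluster 7 that were not members carried these genes too. They gave 56 of the others' 59 Sorbs2 UMIs, and stood at 344 CPM for Akr1c18, 296 for Timp3, 248 for Tnfaip2 and 318 for Stra6, a retinol receptor. Plet1, Fmo2, Lrmp, Plac8, Stra6, Kctd14, Socs2 and Atp1b1 made up the rest of the leading 20, with mean log2 ratios from 4.35 to 5.50.

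Genes of the differentiated tongue surface were among those lower in members. Of the 10 measured genes of the differentiated keratinocyte list, 4 were at least 2-fold lower and none higher, with a median log2 ratio of -1.52. Krt13 stood at 5301 CPM in ZT0 members and 5772 in ZT12 members, against 18620 and 26126 in the others. Krt4 stood at 3238 and 1247 CPM against 9228 and 12476. Krt76, a keratin of hard palate and tongue mucosa, was at 4.89 and 5.32 CPM against 327 and 258. The share of cells with a Krt76 UMI was alike, 11.4% of members and 12.1% of the others. Its level in the others came largely from cluster 9, at 2837 CPM against 37.3 in the kept cells outside that cluster. Dsg1a, a desmosomal cadherin, was at 115 and 14.6 CPM against 279 and 292.

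The protease inhibitors Serpinb12 and Serpinb3a of the outer epithelium had the largest ratios in this direction, and 3 of 5 measured cornified genes, Serpinb12, Crct1 and Sprr3, were at least 2-fold lower. Crct1 and Sprr3 were rare in both groups, with a UMI in 1 member each and in 184 and 48 of the 3996 others. Their calls rest on those few cells. Sprr1a, a cornified envelope gene outside that list, went the other way, at 1142 and 165 CPM in members against 80.2 and 70.6. Serpinb12 stood at 1.22 and 3.99 CPM in members against 303 and 239 in the others, a mean log2 ratio of -6.34, and 3 members had a UMI. Serpinb3a stood at 7.33 and 2.66 CPM against 423 and 415. Krt84, a hard keratin of filiform papillae, was at 2.44 and 2.66 CPM against 170 and 205, and Tchh, a protein that binds such keratins, at 20.8 and 26.6 against 163 and 170. The shares of cells with a UMI differed less, 5.71% of members and 8.13% of the others for Krt84, and 31.4% and 33.9% for Tchh. Cluster 9 was at 1620 CPM of Tchh, against 25.1 in the kept cells outside it. Ces1h, Ndufa4l2, 2610528A11Rik and Endou followed, with mean log2 ratios from -3.27 to -2.85. Endou kept its direction but was no longer called when the members in cluster 7 were taken alone, when taste-gene cells were left out and when the deepest cells were left out.

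Of the 9 measured basal keratinocyte genes, none was called in both libraries, and their median log2 ratio was -0.38. In ZT0 alone some passed the 2-fold limit. Krt14, with log2 ratios of 1.44 at ZT0 and 0.42 at ZT12, was higher there. Col17a1, a hemidesmosome collagen, had -1.10 and -0.96, and Dst, a linker of the same structure, -1.08 and -0.93. With TMM factors both were called lower. Krt14 stood at 14053 and 6937 CPM in ZT0 and ZT12 members, against 5181 and 5200 in the others, and 67 members had it. Krt5 had a median of 18.2 per 10000 (0 to 113) in members and 29.1 in other kept cells. In members in cluster 7, Krt14 had a median of 81.1 per 10000 (0 to 463) and Krt8 one of 3.61. Medians do not show whether the same cells held both, and single cells differed. The ZT12 cells at places 2 and 1 had 67.2 and 51.7 per 10000 of Krt8 with 7.80 and 11.9 of Krt14. The ZT0 cells at places 10 and 5 had 40.3 and 28.2 of Krt8 with 187 and 382 of Krt14. Of the filiform list, Krt17 was at 2748 and 3164 CPM against 629 and 719, and it was no longer called among members of value 10 or more. Of its 2377 UMIs in ZT12 members, 1 cell held 1532. Without that cell, a choice made after seeing the data, Krt17 was at 1165 CPM in ZT12 members, 1.62-fold the others, and its call was lost. Of the 5 measured genes of that list, it was the 1 called higher, and Krt84 and Tchh were called lower.

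**Figure D3:**
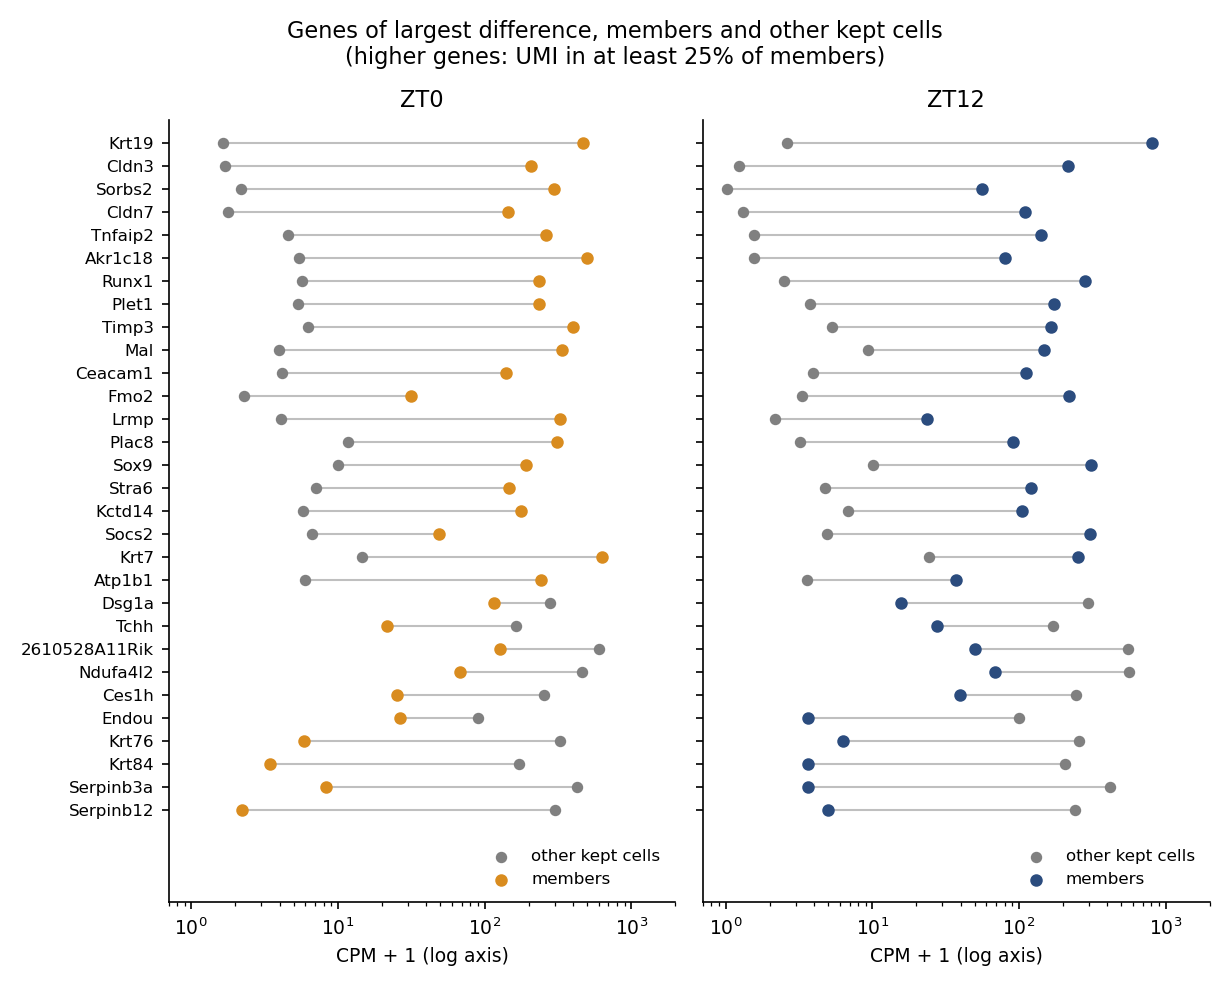
CPM + 1 (log axis) of the 20 genes with the largest ratios among those with a UMI in at least 25% of members and the 10 with the smallest, in members (coloured) and in other kept cells (grey) of each library. Every coloured point lies right of its grey point for the upper 20 genes and left of it for the lower 10, with Krt19 at 469 and 807 CPM in members.

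Gland duct genes were checked because simple keratins, Ltf and secreted whey acidic proteins are found in ducts. Of the 6 measured genes of the 18 listed, Krt7, Sox9 and Wfdc2 were at least 2-fold higher in members in both libraries and none was lower, against 2.08% of all measured genes higher. Krt19, Kit and Pigr reached 5 CPM only through the members. Wfdc2, a secreted whey acidic protein, stood at 430 CPM in ZT0 members and 1656 in ZT12 members, against 195 and 116 in the others, of which 1844 cells also had it. Kit, a receptor tyrosine kinase, was at 40.3 and 34.6 CPM against 3.11 and 2.36, in 28 members. Pigr, the receptor that carries immunoglobulin A across ducts, was at 1.22 and 24.0 CPM against 0.0207 and 0.0602, in 6 members, and its ZT0 level is a single UMI.

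The genes of ionocytes and other specialised duct cells were at or near 0. Ascl3 and Sox10 had no UMI in any member, Foxi1 and Klk1 had one in 1 member each, and Cftr, a chloride channel, in 3. In the others, Ascl3 and Sox10 had a UMI in 5 and 3 cells. Of 18 gland acinar genes, 10 had no UMI in members, among them Amy1, Bpifa2, Pip and Dcpp1. Bpifa2 and Pip had none in the others either, and Amy1 and Dcpp1 had one in 9 and 1 of them. Lpo had a UMI in 4 members, Muc5b and Smgc in 2 each, and Muc19 in 1. Agr2, a folding factor of secretory cells, was at 3.67 and 29.3 CPM against 1.22 and 0.738. Dmbt1, a mucosal scavenger protein, was at 0 in ZT0 members and 419 CPM in 4 ZT12 members, against 0.0621 and 0 CPM in the others. The cell at place 6 held 252 of its UMIs, and the cells at places 1, 2 and 9 held 26, 1 and 36. Of the 6 myoepithelial genes, 5 had no UMI in members, and in the others these 5 had one in 3 (Myh11) to 146 (Mylk) cells.

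Of the 6 measured genes of mucosal defence, Wfdc2, Wfdc12 and Cxcl16 were at least 2-fold higher in both libraries and none was lower. Another 8 genes of that list reached 5 CPM only through the members, among them Lcn2, Pigr and 3 chemokines, and their values are a description of the few cells that hold them. Wfdc2 and Pigr are also on the duct list. Lcn2, a protein that binds bacterial iron carriers, stood at 66.0 CPM in ZT0 members and 218 in ZT12 members, against 0.0207 and 0.979, in 10 members. The chemokines Cxcl17, Cxcl5 and Cxcl1 stood at 40.3, 2.44 and 9.77 CPM in ZT0 members and at 90.5, 117 and 74.5 in ZT12 members, and at most 0.621 in the others. Cxcl17 had a UMI in 11 members, Cxcl1 in 8 and Cxcl5 in 7. Of 31 listed genes, 11 had no UMI in members, among them Lyz1, Bpifa1, Reg3g and Nos2, which had none in the others either.

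Taste receptor cell genes came from single members. Of the type II list, which holds the parts of sweet, bitter and umami signalling, 11 genes were under 1 CPM in the other cells and gave 616 UMIs in members and 51 in the 3996 others. Almost all of those in members came from 3 cells, the ZT0 cells at places 19, 21 and 30, which had 293, 28 and 292. Among the others, 1 cell had 3, from a single gene. The 9 genes of the type III list, the sour-sensing cells, gave 104 UMIs in members and 14 in the others, and 1 member, the ZT12 cell at place 25, had at least 3. In these 4 cells the rule value was wholly Krt8 and Krt18, and each of them carried Krt19.

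The ZT0 cell at place 19 had 127 UMIs of Gnb3, 49 of Plcb2, 42 of Gng13, 38 of Gnat3 and 8 of Trpm5, which together encode the G protein, phospholipase and channel of type II cells. It also had 16 UMIs of Tas1r2 and 11 of Tas1r1, receptor subunits. The ZT0 cell at place 30 had 126 UMIs of Gnb3 and 105 of Gnat3, but no Tas1r1 or Tas1r2. That cell was the deepest member at 47278 UMIs and gave most of the members' Krt36, a hard keratin of the tongue surface, with 161 per 10000. The ZT0 cell at place 21 had 17 UMIs of Gng13, 5 of Plcb2 and 4 of Tas1r1. The ZT12 cell at place 25 had 37 UMIs of Pkd1l3, 15 of Snap25, 12 of Pkd2l1 and 10 of Otop1, the proton channel of sour cells. The ZT12 cell at place 33 had a value wholly from keratin and had 18 of the members' UMIs of Shh, the signal of taste cell precursors.

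Counted over the members, Rtp4 was the 1 of 3 measured type II genes at least 2-fold higher in both libraries, and Hes6 the 1 of 2 measured taste progenitor genes. Shh and Prox1 of that list reached 5 CPM only through the members. Rtp4 was at 41.5 CPM in ZT0 members and 5.32 in ZT12 members, against 19.7 and 0.888 in the others. With a UMI in 18 members, it was not confined to the taste-gene cells. It was also a leading gene of cluster 6, beside the interferon-response genes Isg15 and Ifit1. Hes6 was at 81.9 and 65.2 CPM in members against 21.2 and 27.5 in the others. Of its 67 UMIs in ZT0 members, the taste-gene cells at places 19 and 21 held 35 and 10, and of its 49 at ZT12 the one at place 25 held 18. Hes6 had a UMI in 41.4% of members and 42.3% of the others. Of 27 Prox1 UMIs in members, the taste-gene cells at places 19, 21, 25 and 30 held 5, 1, 10 and 1. The rest were in the cells at places 33 and 15, with 8 and 2, whose values were also wholly keratin. These cells are not among the 4 taste-gene cells left out below. Of the 3 measured genes of the type I list, the supporting cells, Otop2 was lower at 2.44 and 3.99 CPM against 9.44 and 11.6. It had a UMI in 5.71% of members and 8.26% of the others. Otop2 was also a leading gene of cluster 9, beside Krt76 and Tchh, at 95.4 CPM against 2.40 in the kept cells outside that cluster. Leaving out the 4 taste-gene cells, a choice made after seeing the data, gave 104 genes higher and 55 lower, with 97 and 38 of them as before.

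No UMI was found in members for 3 of 10 immune genes and 13 of 16 stromal or neural crest genes. Of the latter, Col1a2, Col3a1, Lum, Cdh5, Kdr and Des had none in the others either. Of the stromal list 1 gene was measured and not called, and of the immune list none was measured. The immune list summed to 28.1 and 22.6 CPM in members, higher than the 9.96 and 7.69 in the others. Ptprc, Cd3g, Nkg7, Cd52, Lyz2 and Coro1a each had UMIs in 1 member only. The stromal list summed to 484 and 455 CPM against 823 and 426, nearly all of it Dcn. Of the 9 proliferation genes, Pclaf was lower in members in both libraries (34.2 and 9.32 CPM against 114 and 20.6) and none was higher. Of the 3 measured Merkel cell genes, Isl1 was lower, at 23.2 and 22.6 CPM against 76.9 and 47.3.

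Krt19 and Krt79 were carried by different members, a pattern noticed in the data. Krt79 is a keratin of hair follicle openings and sebaceous gland ducts, and it was not on any list. With at least 5 UMIs counted as carrying a gene, 19 members (7 ZT0, 12 ZT12) carried Krt19 and 14 (11 ZT0, 3 ZT12) carried Krt79, and none carried both. Krt7 was shared by the sides: of 30 members with Krt7, 13 carried Krt19 and 13 carried Krt79. Sox9 was carried by 12 of the 14 Krt79 members and 7 of the 19 Krt19 members. The median rule value was 151 per 10000 in the Krt19 members and 7.09 in the Krt79 members.

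Cxcl17 and Dmbt1 were found with Krt19. All 7 members with Cxcl17 and all 3 with Dmbt1 carried Krt19, Krt7 and Wfdc2, and none of them carried Krt79. Wfdc2 was carried by 10 of the 19 Krt19 members and 2 of the 14 Krt79 members. Psca, a surface protein of mucosal and urinary epithelia, was carried by 6 members, 2 with Krt19 and 3 with Krt79. Arg1, the enzyme that splits arginine, was carried by 7 members (6 ZT0, 1 ZT12), 4 of them with Krt19. Krt79 was also carried by 12 of the 20 cells of cluster 7 outside the members and by 84 of all 3996 other kept cells, while Krt19 was carried by 0 of those 20 and by 4 of the 3996. All 4 taste-gene cells were on the Krt19 side.

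**Figure D4:**
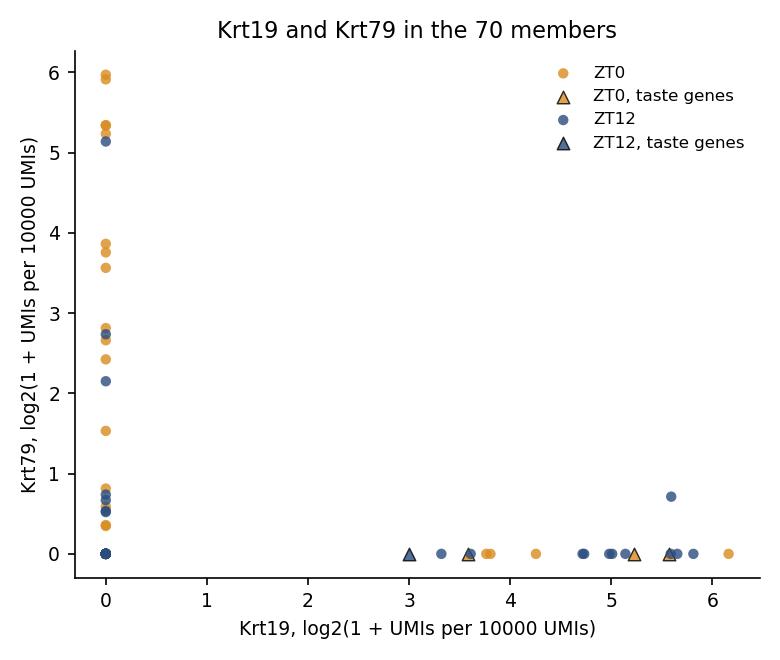
Krt79 against Krt19 in each of the 70 members, both as log2(1 + UMIs per 10000 UMIs), orange for ZT0, blue for ZT12 and triangles for the 4 taste-gene cells. Points lie along the axes, with 1 cell high in Krt19 that also holds a trace of Krt79.

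Members made up 2.04% of kept cells at ZT0 (1.39% to 2.89%) and 1.53% at ZT12 (1.09% to 2.08%), a ratio of 0.748 (0.455 to 1.24). In cluster 7 members were 1.39% and 1.06% of kept cells, a ratio of 0.764 (0.416 to 1.42). For the members, a difference in either direction was therefore not detectable with these numbers of cells. All cells of cluster 7 together, members or not, were 2.31% of kept cells at ZT0 (1.61% to 3.20%) and 1.29% at ZT12 (0.892% to 1.81%), a ratio of 0.561 (0.338 to 0.929). Summed over members, Ltf was at 2078 CPM at ZT0 and 1962 at ZT12, a ratio of 0.944 (0.880 to 1.01). Krt8 was at 629 and 732 CPM, Krt18 at 401 and 708, and Wfdc18 at 1273 and 3106. The last of these is over 2-fold but was not called, because of the share of 1 cell in it. The cell at place 2 held 27.4% of the members' Wfdc18 UMIs, and the cell at place 1 held 20.1% of their Ltf UMIs.

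Between the libraries, 1455 genes of at least 100 CPM were compared within members. At ZT12, 32 (2.2%) were at least 2-fold higher and 51 (3.51%) at least 2-fold lower, with the interval of the ratio excluding 1 and no cell holding over 25% of the gene's UMIs. Another 32 genes passed the fold and the interval but were left out because 1 cell held more than that. The same rule in other kept cells gave 3 of 1370 genes higher (0.219%) and 13 lower (0.949%). The members' sums rest on 31 and 39 cells of unlike makeup, so the larger share there cannot be told apart from which cells were caught in each library. Of the 83 genes called in members, 47 were compared in the others and 5 were called there in the same direction.

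Among the 8 genes with the largest ratios towards ZT12 were the proteases Ctsl and Adam28 and the secreted Wfdc2. Ctsl, a lysosomal cathepsin, was at 39.1 CPM in ZT0 members and 363 in ZT12 members, a ratio of 9.29 (6.43 to 13.9), against 27.6 and 56.7 CPM in other cells. Adam28, a membrane metalloproteinase, was at 44.0 and 359 CPM, a ratio of 8.17 (5.76 to 11.9), against 13.9 and 16.6 in the others. Socs2, an inhibitor of cytokine signalling, was at 47.7 and 304 CPM, and Fmo2, a flavin monooxygenase, at 30.5 and 218. Wfdc2 was at 430 and 1656 CPM, a ratio of 3.85 (3.42 to 4.35), whereas in other cells it was at 195 and 116. Glul, Tcim and Ddit4 followed with ratios of 4.60, 4.23 and 3.92.

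Krt79 was among the 8 genes with the largest ratios towards ZT0. Krt79 was at 1026 CPM in ZT0 members and 169 in ZT12 members, a ratio of 0.165 (0.136 to 0.199), and at 28.8 and 34.4 CPM in other cells. Within cluster 7 members alone it was at 1677 and 249 CPM. Lrmp was at 326 and 22.6 CPM, Akr1c18 at 502 and 79.9, and Sorbs2 at 294 and 54.6. Sprr1a, a cornified envelope protein, was at 1142 and 165 CPM, against 80.2 and 70.6 in other cells. It had a UMI in 15 ZT0 members and 3 ZT12 members. Crabp2, which binds retinoic acid, was at 309 and 38.6 CPM, and Gja1, a gap junction protein, at 452 and 95.8. Ifi27l2a, an interferon-induced gene, was at 674 and 45.3 CPM, and other cells went the same way at 578 and 23.5. Of the members that carried Krt79, 11 were ZT0 cells and 3 ZT12 cells, and the part of this in the ratios was not tested.

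Interferon-response genes summed to 2962 CPM in ZT0 members and 1024 in ZT12 members, and to 2170 and 356 in the others. B2m, the light chain of class I histocompatibility molecules, was at 477 CPM in ZT0 members and 134 in ZT12 members, against 371 and 27.6 in the others. Psmb8, a subunit of the immunoproteasome, was at 64.8 and 39.9 CPM against 43.2 and 1.42. None of the 9 measured genes of the list was 2-fold higher in members in both libraries, and their median log2 ratio was 1.07.

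Of the 10 clock genes, Dbp, Tef, Per3, Nr1d1, Nr1d2 and Usp2 were higher at ZT12 and Cry1 lower, in members and in other cells, with intervals that exclude 1. They lie mostly under 100 CPM and so outside the rule of size. Against other cells Usp2 was the 1 of 9 measured that was at least 2-fold lower in members in both libraries. Dbp, a clock output factor, was at 3.67 CPM in ZT0 members and 170 in ZT12 members, a ratio of 46.5 (15.6 to 228) from 3 and 128 UMIs, against 54.5 (46.9 to 63.8) in other cells. Per3, a repressor of the clock, was at 11 and 90.5 CPM, a ratio of 8.23 (4.09 to 18.8) against 8.71 in the others. Tef was at 6.11 and 59.9 CPM and Nr1d1, a nuclear receptor of the clock, at 9.77 and 86.5, ratios of 9.81 (3.91 to 31.7) and 8.85 (4.24 to 21.4) against 7.80 and 5.47. Nr1d2 had a ratio of 6.17 and Usp2 one of 3.13. Arntl and Npas2, activators of the clock, had 8 and 5 UMIs in ZT0 members and 2 and 0 at ZT12, too few to set a ratio. Clock, their partner, was at 95.3 and 70.6 CPM in members, a ratio of 0.740 whose interval (0.512 to 1.06) includes 1. Cry1 was at 31.8 and 2.66 CPM, a ratio of 0.0838 (0.00964 to 0.335) from 26 and 2 UMIs, against 0.455 (0.421 to 0.492) in other cells.

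**Figure D5:**
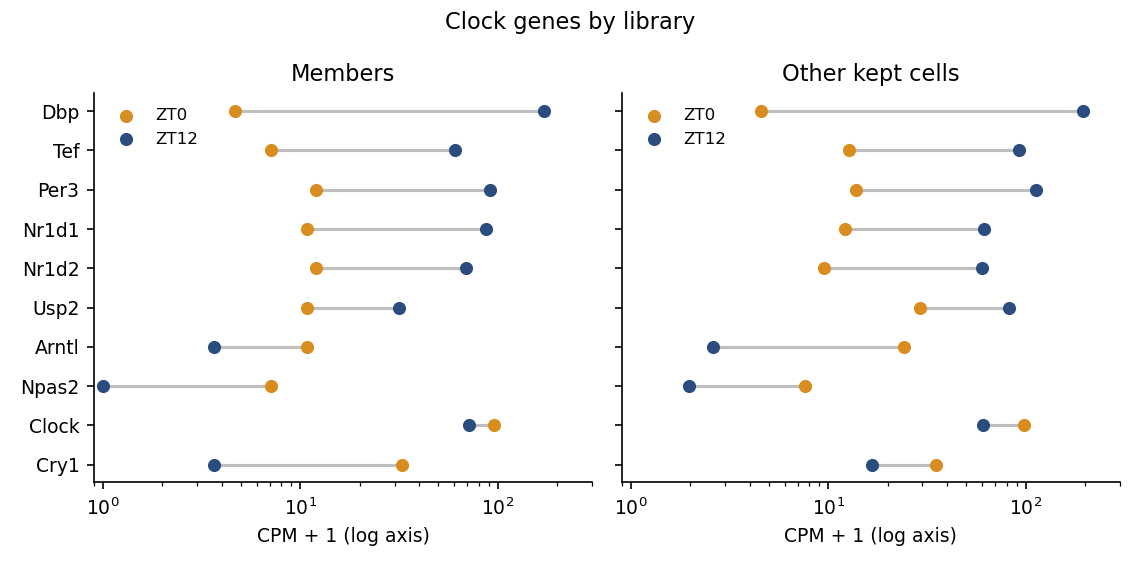
CPM + 1 (log axis) of 10 clock genes at ZT0 (orange) and ZT12 (blue), in members at the left and in other kept cells at the right. Dbp, Tef, Per3, Nr1d1, Nr1d2 and Usp2 lie further right at ZT12 in both panels, with Dbp in members at 3.67 and 170 CPM. The other 4 genes lie further left, 3 of them in members (Clock, Arntl and Npas2) within counting error.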

How the data were processed

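Single-cell RNA libraries of tongue epithelium, sorted as 7-AAD negative cells after TrypLE digestion, were made with the 10x 3' v2 protocol, per the labels' protocols. The authors deposited raw UMI counts per gene and barcode for 32285 genes. Cell Ranger 2.1.1 and mm10 are named in the submitters' processing notes, whereas the file headers name Cell Ranger 4.0.0, and the difference could not be settled. Counts were used as deposited, with no correction for free RNA and no doublet caller. Leaving out the deepest 5% of cells was tried, but all 70 members stayed in, so it was no check for doublets among them. The 2 libraries shared 2 kept barcodes, 1 of them a member's.

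Members and gene lists were chosen with earlier results of these data known. Counts were summed per library and scaled to CPM, and log2 ratios used a pseudocount of 1 CPM. A gene was called at 2-fold in both libraries and a mean of at least 50 CPM (100 between the libraries). Lists were counted over genes of at least 5 CPM in the other kept cells, in place of a mean of 5 CPM over both, a choice made after seeing the data. No test was possible with 1 library at each time. Named were the rule genes, the 20 highest genes with a UMI in at least 25% of members, the 10 lowest, up to 4 genes of each of 21 lists with the largest ratios, the clock list, and up to 8 genes each way between the libraries. Other genes named (such as Krt79, Psca, Arg1 and Ecm1), and absent list genes, were chosen after their values were seen. A gene of a taste cell list is not reported here and was left out of its list. Shares carry Clopper-Pearson intervals and ratios conditional binomial intervals. Clusters used scanpy 1.11.5 (30 components, 15 neighbours, Leiden resolution 1.0, igraph 0.11.9), and TMM factors edgeR 4.0.16. The rule for calling genes was checked on simulated sums with no variation between cells, so the limit on the share of 1 cell was not checked. Gene positions are from GENCODE M21.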

Additional observations from a re-analysis of the deposited data

Results flagged for a closer look

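Among the named genes, the ratio of members to other kept cells of 3 went one way in ZT0 and the opposite way in ZT12. Cnfn, a cornified envelope gene, had a log2 ratio of 3.07 at ZT0 and -2.96 at ZT12, a difference of -6.03. Krt36 had 1.32 and -5.04, a difference of -6.36, and a single ZT0 taste-gene cell held most of its UMIs in members. Acta2, a smooth muscle actin, had -1.53 and 1.35, a difference of 2.88, with a UMI in 5 members. With 1 library per time these differences were not tested.

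Among the barcodes outside the filters, 9 had a summed value at or above that of the lowest member, and all were under the minimum of 5000 UMIs. The highest 3 had 27, 16 and 12 UMIs of the rule genes and values of 105, 58.6 and 55.8 per 10000. The other 6 had a single UMI each.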

How the results depend on the processing

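The ratio of the members' shares at ZT12 over ZT0 ranged from 0.667 to 1.07 over the alternatives, each within counting error of 0.748. Against other kept cells, genes higher and lower in members numbered 197 and 97 in the top 35 cells and 42 higher in the top 140. They numbered 211 and 84 at a minimum of 20 CPM, 55 higher at 100 CPM, and 787 and 353 with no minimum. They numbered 186 and 75 in the ZT0 library only and 187 and 115 in the ZT12 library only. With settings chosen after seeing the data they numbered 187 and 97 (members in cluster 7 only) and 204 and 101 (value of 10 or more).

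Between the libraries, genes higher and lower at ZT12 numbered 70 and 96 at a minimum of 50 CPM, 21 and 24 at 200 CPM, 63 and 97 in the top 35 cells and 14 and 28 in the top 140. They numbered 57 and 83 in cluster 7 members and 63 and 94 at a value of 10 or more. A different number of genes tested, or of cells summed, is part of each of these settings, and the cause was not tested further. Counted over genes of a mean of 5 CPM over members and others, as planned, 8 of 15 junction, 6 of 9 duct, 9 of 14 mucosal defence and 3 of 4 taste progenitor genes were higher, and the added genes passed that minimum only through the members. The share of members' neighbours that were members was 41.6% with 30 neighbours.

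No gene called in the main setting reversed its direction. For genes not called there direction was not compared, and some of them changed sign. Without the member with most of its UMIs, the mean log2 ratio of Cnfn went from 0.05 to -0.21 and that of Pkd1l3 from 2.76 to -0.06. Of 1494 values for 83 genes under 18 settings, 1359 kept their side of the call limits, 61 fell below them and 74 passed them. The setting added last left out, for each gene, the member with most of its UMIs. Krt17, Lcn2 and Endou then lost their call, the latter pair by falling under the minimum of 50 CPM. Of 330 between the libraries, these numbers were 296, 29 and 5. No paired analysis was possible because there was 1 library per time and the shared number 1 names no pairing. Depth limits the low genes: with 31 and 39 cells, genes of a few UMIs rest on single cells.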
